A study of Mus musculus with 11 samples.

Results

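The dendritic cells of the inflamed mouse colon described here were the 216 cells, of 55603 cells in 11 single-cell libraries, that the authors' cell annotation calls dendritic. The libraries came from colonic mucosa stripped of the muscle layer and enzymatically dissociated, with dead cells and red blood cells removed, and 3' transcript ends were counted as unique molecular identifiers (UMIs). Wild-type mice of about 2 months were either uninjured (1 library) or received 3% dextran sulfate sodium (DSS), a colitis-inducing agent, for 6 days and were dissected on 1 of 9 days counted from its start (1 library each): days 6, 7, 9, 11 and 12, called early DSS here, and days 16, 18, 19 and 23, called late DSS. One further library came from Il10-/- mice of about 10 months with colitis and no DSS. These mice lack interleukin 10, a cytokine that restrains intestinal inflammation. Each library pooled several mice. The authors' cell table gives 3 mice for days 7, 11 and 18, which are batch C and were captured fresh, and 8 mice for the others, which that table calls batch A and frozen. The files hold 3 further libraries, among them another uninjured and another day 7 library, that match no sample record and were not used here. Each condition analysed therefore had 1 library, and only the DSS days could serve as replicates of a phase. P-values over these libraries measure the spread between pools and days together.

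Dendritic cells sample antigen and present it on major histocompatibility complex (MHC) class II molecules to T cells. Conventional dendritic cells are divided into type 1, which depends on the transcription factor Batf3, and type 2, and both can turn on Ccr7 and travel to lymph nodes. Plasmacytoid dendritic cells are a separate kind that depends on the transcription factor Tcf4, carries the surface receptor Siglech, reaches the intestine through the chemokine receptor Ccr9, and can secrete type I interferon after sensing nucleic acids through Tlr7 and Tlr9.

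The annotated cells carried the plasmacytoid marker list and were at or near 0 for several defining conventional and mature markers, such as Xcr1, Batf3, Zbtb46 and Fscn1, so in what follows "dendritic cells" is the authors' name for a Siglech- and Ccr9-positive population. All 9 genes of the plasmacytoid list were detected in at least 50% of the 216 cells, and 8 of the 9 had their highest level there among the 28 annotated types, against 11.3% of the 4954 genes detected in at least 10% of these cells. The summed level of the list was 13466 CPM (UMIs scaled to a common library total, mean of the 9 libraries with at least 10 dendritic cells), against 1847 in B cells and 327 in monocytes and macrophages. The annotation was built from the same cells, so these differences between types are a description with no test.

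Of the 3 markers given for the population, Flt3, the receptor for the dendritic growth factor Flt3 ligand, had a UMI in 45.4% of cells and a level of 141 ± 51.5 CPM (SD, n = 9 libraries), against 44.9 in macrophages. H2-Ab1, a chain of the MHC class II molecule, was found in 80.1% of cells at 1529 ± 677 CPM, below the 6610 of macrophages and the 4132 of B cells. Ccr7 was found in 5.56% of cells, with 18 UMIs in all and a mean of 16.2 CPM, below macrophages (226 CPM) and B cells (446 CPM). Ccr7 therefore went against its use as a marker of these cells.

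Siglech (chr7:55768178-55778925, mm10 with GENCODE gene models, + strand), a sialic acid-binding lectin receptor, was present in 97.7% of the cells. Its level was 2140, 1789, 1646 and 1794 CPM on days 7, 9, 11 and 12, then 1474, 1708, 1708 and 1601 CPM on days 16, 18, 19 and 23, and 1851 CPM in Il10-/-. The mean was 1746 ± 186 CPM (n = 9), and no other annotated type exceeded 11.4 CPM. These 9 libraries ran from 1474 to 2140 CPM, and the 5 cells with no Siglech UMI all belonged to the small low-depth cluster described below. After each cell was thinned to 1000 UMIs, 80.9% of 194 dendritic cells kept a Siglech UMI, against 0.165% of 6068 macrophages (median UMIs before thinning 4675 and 3874).

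The other members of the list differed in how far they were restricted to these cells. Ccr9 (chr9:123678439-123784330, + strand) stood at 1096 ± 144 CPM and Cox6a2, a muscle-type subunit of cytochrome c oxidase (chr7:128205435-128206387, - strand), at 1553 ± 331 CPM, against at most 23.1 and 3.36 CPM in any other type. Bst2, or tetherin, which holds budding viruses at the cell surface, stood at 3329 ± 379 CPM against 467 CPM in plasma cells, the next type. Tcf4 measured 1136 ± 222 CPM, with endothelium next at 982 CPM. Ly6d, a surface protein also found on lymphoid progenitors, measured 3527 ± 1037 CPM, with B cells next at 1600 CPM. Runx2 (371 CPM) and Cd300c (204 CPM) were also highest in dendritic cells, and the tissue kallikrein Klk1 was not, with 505 CPM against 1606 CPM in goblet cells.

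**Figure D1:**
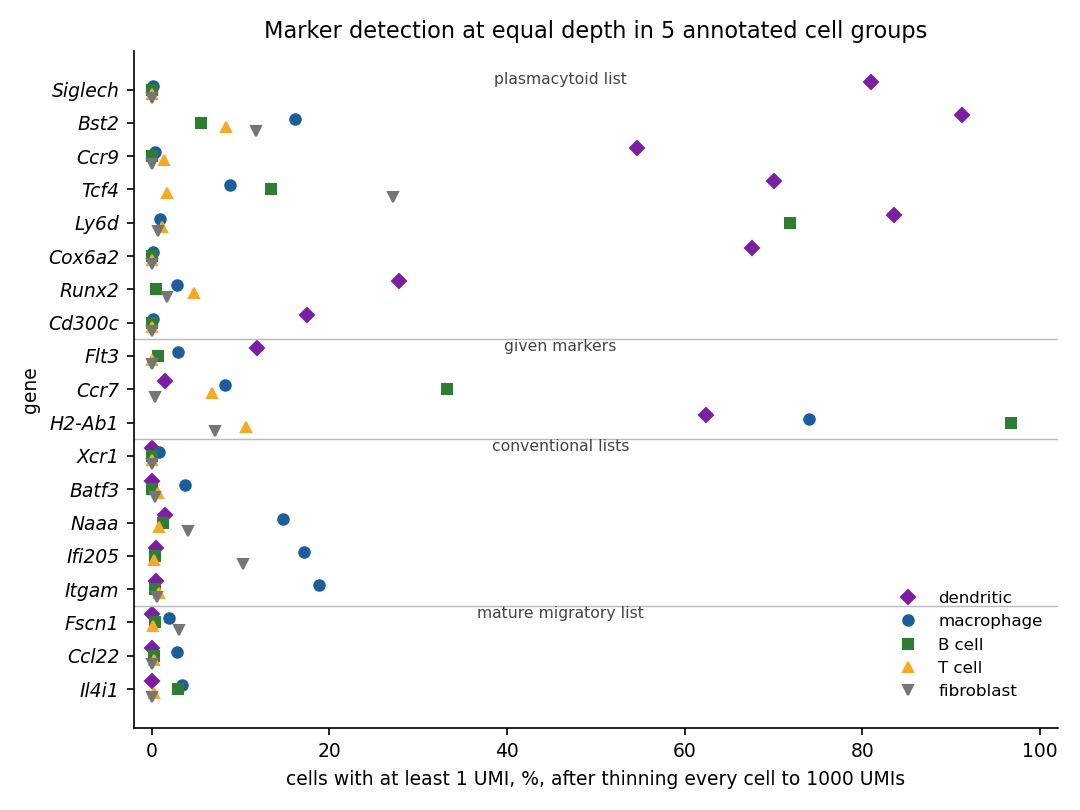
Share of cells with at least 1 UMI of each gene (x axis, %) after every cell was thinned to 1000 UMIs, in dendritic cells (diamonds), macrophages, B cells, T cells and fibroblasts. Dendritic cells stand far to the right for Siglech (80.9% against 0.165% of macrophages), and lie at or near 0 for Xcr1, Batf3 and Fscn1. The conventional and mature list genes drawn are low ones and not the whole lists. Of those not drawn, Cd7, Bcl11a and Samsn1 were found in 43.8%, 34.5% and 24.2% of dendritic cells.

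The lists of conventional and mature dendritic cells were detected in part. A UMI was found in at least 5% of cells for 7 of the 8 genes of the list shared by conventional cells, 5 of 12 of the type 1 list, 9 of 12 of the type 2 list and 7 of 16 of the mature list. Among those at 0, Xcr1, Tlr3, Snx22 and Gcsam of the type 1 list, Zbtb46, a transcription factor of conventional dendritic cells, and Clec4a4 of the type 2 list had no UMI. A count of 0 in 216 cells allows a share of up to 1.39% of cells with a UMI and a level of up to 2.62 CPM, by counting error only. Batf3 had 2 UMIs and Itgam, or CD11b, had 6. In the mature list, Nudt17 and Apol7c had none, and Fscn1, a protrusion-forming actin bundler, and the chemokine Ccl22 had 1 UMI each. Among those detected, Irf8, a transcription factor that both type 1 and plasmacytoid cells need, was at 2023 ± 395 CPM and highest of all types, and Clec9a was in 22.2% of cells (61.5 CPM). Of the type 2 list, Cd7 was in 78.2% of cells (774 CPM) and Sirpa in 44.9% (131 CPM, against 160 CPM in macrophages), beside the lectins Clec10a (295 CPM), Cd209a (197 CPM) and Cd209d (330 CPM). Of the shared list, Bcl11a was in 70.8%, the integrin chain Itgax, or CD11c, in 43.1%, Kmo in 41.7%, Cd24a in 40.3% and Cbfa2t3 in 30.1%. Of the mature list, Samsn1 was in 63.9% and Cd200 in 39.4%.

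Counted per cell at 1000 UMIs, 96.2% of 198 cells had 3 or more genes of the plasmacytoid list (mean of 50 draws). The corresponding shares were 0.455% for the type 1 list, 16.8% for the type 2 list and 1.96% for the mature list. These shares are ranges of a score and not cell types: 12.96% of cells sat exactly at 3 genes of the type 2 list and 29.0% just below it at 2. Without thinning the type 2 share was 71.3%. In 1 draw over the 9 libraries with at least 10 dendritic cells, type 1 and mature list genes were met more often in cells annotated as macrophages. There 3.63% and 7.78% of 6068 cells had 3 or more, and 16.1% and 15.2% of the 112 proliferating macrophages. In the 194 dendritic cells of that draw the shares were 0.515% and 1.55%. The type 2 list went the other way, with 12.9% of dendritic cells, 3.84% of macrophages and 1.79% of proliferating macrophages.

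A pair of clusters in the authors' table made up the population. Cluster 45 held 189 cells with a median of 4933 UMIs and 5.81% mitochondrial UMIs. Cluster 54 held 27 cells from 8 libraries, 12 of them in the day 19 library, with a median of 800 UMIs and 33.7% mitochondrial UMIs. Siglech was present in 100% of the first and 81.5% of the second, and Tcf4 in 97.9% and 81.5%. Bst2 was present in 99.5% and 29.6%. Malat1, a nuclear noncoding RNA, stood at 26826 CPM in cluster 45 and 131845 CPM in cluster 54. Without cluster 54 the count of genes called between late and early DSS was also 0.

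Of 4954 genes detected in at least 10% of the dendritic cells, 558 (11.3%) were higher in these cells than in any other annotated type and 47 (0.949%) were at least 4-fold higher than in every one of them. The 15 genes with the largest ratio to the next type opened with Cox6a2 (462-fold) and Dntt (282-fold), and ended with Tmem221 (10.1-fold). Dntt encodes terminal deoxynucleotidyl transferase, which adds untemplated bases to rearranging antigen receptor genes. It was found in 67.1% of cells at 412 ± 85.0 CPM against at most 1.46 CPM elsewhere. Atp2a1, a calcium pump best known from fast muscle (229-fold), and the forkhead gene Foxr1 (189-fold) were also among the 15. Surface proteins among the 15 were Siglech (153-fold), Ccr9 (47.4-fold), Cd209d (40.1-fold), Cd300c (31.9-fold), the phosphatidylserine receptor Havcr1 (62.7-fold, and 12.4-fold when counts were summed over libraries) and the lipoprotein receptor Lrp8 (13.1-fold). Others were Klk1b27 (73.8-fold), Tmem229b (14-fold, and 6.47-fold from summed counts) and Lefty1 (10.3-fold), an inhibitor of Nodal signalling. Klk1b27 and Cd209d belong to families of near-identical genes whose reads may be divided between copies, so their levels are uncertain.

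The sequences just before the start of 3 of these genes are shown because they belong to the surface receptors that set the population apart and each holds 1 copy of CAGGTG, a sequence of the E-box kind that factors such as Tcf4 bind. They are from RefSeq, build GRCm38.p6, 5′ to 3′ on the gene's strand, ending at or before the RefSeq transcript start, with the motif or its other-strand form CACCTG in capitals.
Siglech, chr7:55767934-55768177, + strand: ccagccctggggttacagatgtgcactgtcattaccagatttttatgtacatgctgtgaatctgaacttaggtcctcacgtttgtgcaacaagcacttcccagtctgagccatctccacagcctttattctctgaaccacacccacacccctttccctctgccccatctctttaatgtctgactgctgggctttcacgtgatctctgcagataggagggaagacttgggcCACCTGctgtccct
Ccr9, chr9:123766961-123767168, + strand: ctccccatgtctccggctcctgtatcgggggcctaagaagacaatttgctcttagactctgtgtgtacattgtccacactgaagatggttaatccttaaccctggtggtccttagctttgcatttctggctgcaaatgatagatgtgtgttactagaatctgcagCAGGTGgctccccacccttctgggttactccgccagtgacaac
Cd300c, chr11:114960508-114960757, - strand: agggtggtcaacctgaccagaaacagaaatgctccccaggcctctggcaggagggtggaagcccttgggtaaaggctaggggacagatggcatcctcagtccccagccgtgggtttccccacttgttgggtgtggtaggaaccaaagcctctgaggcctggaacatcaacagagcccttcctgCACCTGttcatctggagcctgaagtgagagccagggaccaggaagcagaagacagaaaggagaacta
The motif began 20 bases before the RefSeq start of Siglech, 85 before that of Ccr9 and 67 before that of Cd300c. The starts of Ccr9 and Cd300c lie inside the GENCODE gene span, which begins further upstream. Whether these windows are intronic in another transcript of the gene was not checked. Of the 15 genes, 12 had a RefSeq entry, and 7 of these 12 held CAGGTG on either strand in the 250 bases before at least 1 of their starts, against 19.4% of all 27025 genes with an entry. Counted by window, 9 of 17 held it against 17.2% of all 32851. The related palindrome CAGCTG, which cannot overlap it, was held by 2 of the 12 genes against 14.7% of all genes. A match describes letters in a window and no binding was measured.

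**Figure D2:**
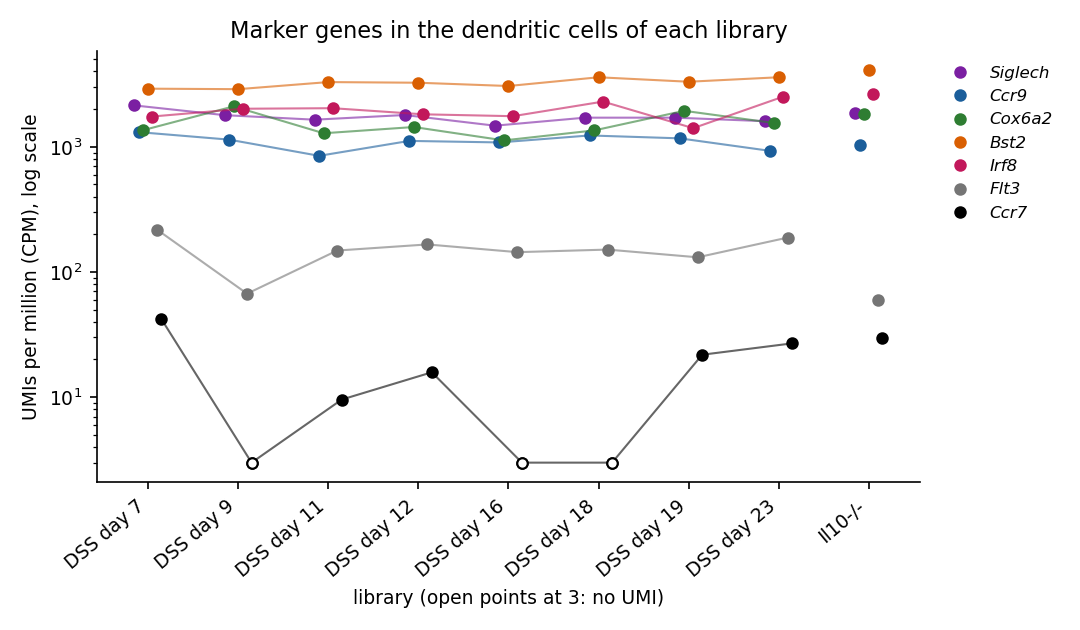
Level of 7 genes (y axis, CPM on a log scale) in the dendritic cells of each DSS library and of the Il10-/- library (x axis). The lines of Siglech, Ccr9, Cox6a2, Bst2 and Irf8 stay close to level across days, Flt3 is lower throughout, and Ccr7 had no UMI in 3 libraries (open points).

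The genes of nucleic acid sensing were present with no interferon transcript. Tlr7 was found in 31.9% of the cells at 83.3 ± 19.1 CPM, above every other type (glia next, 23.0 CPM), and Tlr9 had 3 UMIs in all. The trafficking chaperone of these receptors, Unc93b1, stood at 563 CPM against 319 CPM in macrophages. Pacsin1 (173 CPM) and the lysosomal transporter Slc15a4 (93.2 CPM), both needed for interferon output of plasmacytoid cells, were also highest here. All 16 genes of the type I and III interferon list, Ifnb1 among them, had no UMI in any of the 216 cells. This was not particular to these cells, since the list summed to at most 0.215 CPM in any other type (macrophages). Among other interferon-stimulated genes, Isg15 stood at 62.2 CPM against 377 CPM in macrophages and Gbp2 at 17.4 against 475 CPM, while Irf7 stood at 99.7 against 70.2 CPM.

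Transcription factors followed the same division. Besides Tcf4 and Irf8, Bcl11a (367 CPM) and Runx2 were higher than in any other type, and Spib (261 CPM) was exceeded by tuft cells (275 CPM). Id2, which opposes Tcf4 and favours conventional cells, stood at 27.4 CPM against 353 CPM in macrophages. Of the genes shared with lymphoid progenitors, Dntt, Ly6d and the pre-T cell receptor gene Ptcra (64.4 CPM) were highest here, while the recombinase genes Rag1 and Rag2 had no UMI.

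Of the homing genes, the selectin ligand protein Selplg (1107 CPM) was highest among all types, and the gut integrin chain Itgb7 was at 109 CPM. Of the inhibitory and lectin receptors, a list added after the markers of these cells were seen, 10 of 14 were highest here, against 11.3% of the 4954 genes, including Lair1 (543 CPM), Slamf9 (247 CPM), Clec12a (174 CPM) and Klra17 (166 CPM). Ly6c2, also a monocyte gene, was at 1977 CPM, whereas the macrophage genes Adgre1, Mertk and Fcgr1 had no UMI and C1qa had 7 UMIs.

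Genes of T cell activation were sparse next to those of macrophages. The MHC class II list summed to 12714 CPM, against 37682 in macrophages and 30489 in B cells. The costimulation list summed to 82.6 CPM against 1050 in macrophages, and Cd40 was among the 3 of its 10 members with no UMI. Among cytokines, Il12a, a subunit of interleukin 12, was higher than in any other type (70.8 CPM, 25% of cells), and its partners Il12b and Il23a and the cytokine Il6 had no UMI. The chemokine Ccl4 was abundant and uneven, at 3906 ± 2085 CPM, and at equal depth was found in 58.2% of dendritic cells and 28.8% of macrophages. Ccl4 was low in all 3 batch C libraries (747, 1560 and 1692 CPM) and between 4546 and 7078 CPM in the others.

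RNA of other cell types was measured beside these values. At 1000 UMIs, Igha, an immunoglobulin gene of plasma cells, had a UMI in 49.5% of dendritic cells, 46.9% of macrophages, 48.2% of T cells, 57.0% of B cells and 32.3% of fibroblasts. S100a9, a neutrophil gene, had one in 33.0, 39.3, 35.1, 36.9 and 28.6% of the same types. The part of free RNA in these shares was not tested. The 5 mast cell and basophil markers had no UMI. In 5 of the 216 cells more than 5% of UMIs came from another type's list: 4 cells on days 11 and 12 carried 7.30 to 11.3% neutrophil UMIs and 1 cell on day 16 carried 8.50% plasma cell UMIs. Mzb1, a secretory chaperone of the plasma cell list, differed from this pattern, with a UMI in 18.6% of dendritic cells, 1.09% of macrophages and 27.9% of B cells. Depth over all cells ranged from 7963048 to 87491138 UMIs per library and the dendritic cells held 1150060 in all, with a median of 4656.5 per cell. Libraries shared at most 41 cell barcodes, and 7 dendritic cells had a barcode seen in another library, none of them with another dendritic cell.

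The share of dendritic cells among captured cells was low everywhere and uneven over time. It was 0.0549% in the uninjured library (1 of 1820 cells; exact 95% interval 0.00139 to 0.306%), then 0.122, 0.172, 0.239, 0.235 and 0.804% on days 6, 7, 9, 11 and 12. On days 16, 18, 19 and 23 it was 0.870, 0.160, 1.12 and 0.487%, and in Il10-/- 0.360% (0.223 to 0.550%). Days 12, 16 and 19 stood above the rest, and the late libraries overlapped the early ones. Across the 9 DSS libraries the share had a Spearman's rho with day of 0.60 (exact two-sided permutation p = 0.0968, adjusted over 28 types 0.375) and Pearson's r 0.517 (exact permutation p = 0.151, adjusted 0.385). Without the 2 days farthest from the median day r was 0.437. In the 6 batch A libraries rho was 0.657 (exact permutation p = 0.175, adjusted 0.377) and r was 0.592 (p = 0.217, adjusted 0.366), and the 3 batch C libraries, all low, were too few for a value. Among immune cells, the uninjured share was 0.510% (1 of 196, exact 95% interval 0.0129 to 2.81%). It was 0.178, 0.484, 0.295 and 0.353% on days 6, 7, 9 and 11, and 0.483% on day 18. Days 12, 16, 19 and 23 lay between 0.888 and 1.57%, and Il10-/- at 0.514%. The uninjured and batch C libraries then lay above days 6 and 9. Against day, this share had rho 0.683 (exact permutation p = 0.0503, adjusted over 9 types 0.113) and r 0.653 (p = 0.058, adjusted 0.104). No share trend passed. Fresh capture and freezing differ between the 2 sets of libraries, and their part in the share was not tested.

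**Figure D3:**
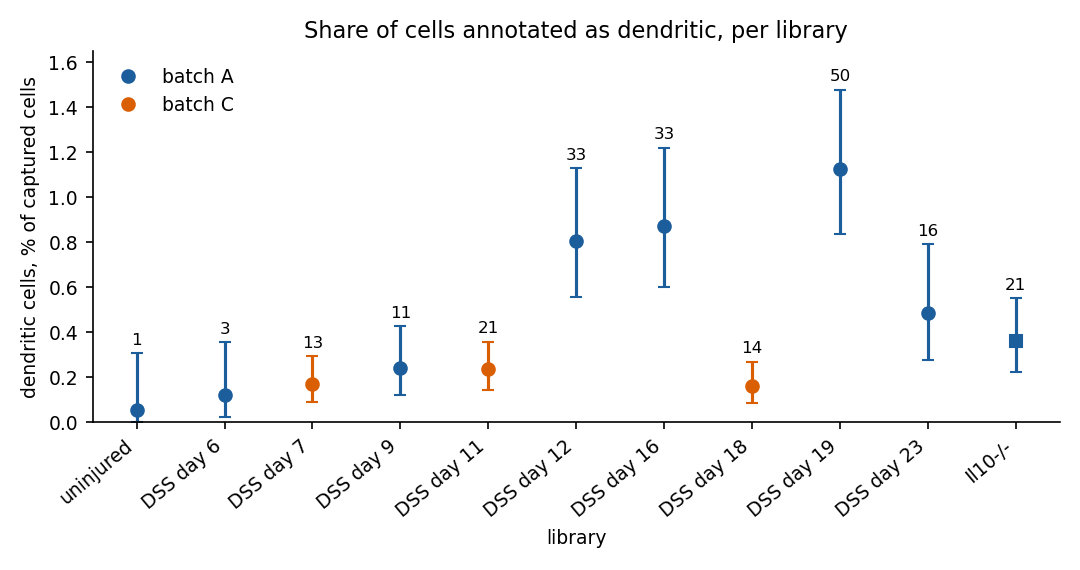
Dendritic cells as a share of captured cells (y axis, %) per library (x axis), with exact 95% binomial intervals and the number of dendritic cells above each point. Days 12, 16 and 19 lie at 0.804, 0.870 and 1.12%, and the 3 batch C libraries lie at or below 0.235%.

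The expression of the dendritic cells in late and early DSS was compared in the 8 DSS libraries with at least 10 dendritic cells: days 7, 9, 11 and 12 (78 cells, 499421 UMIs) against days 16, 18, 19 and 23 (113 cells, 529229 UMIs). Siglech had a log2 change of -0.14 ± 0.14 (SE), and the 9 plasmacytoid genes had a median of 0.05 against -0.01 for all genes, with none called. No gene passed edgeR's quasi-likelihood test in either direction at a Benjamini-Hochberg adjusted p under 0.05: 0 of 1790 genes were called higher (0.0%) and 0 lower (0.0%), with 93 genes under an unadjusted p of 0.05, a smallest adjusted p of 0.745 and 1 call by DESeq2. In macrophages of the same libraries, with far more cells, 49 of 9602 genes were called higher (0.51%) and 82 lower (0.854%). In data simulated for the dendritic comparison, a change of 1 on the log2 scale was recovered for 94 of the 159 changed genes that passed the filter on low counts (47% of all 200 changed), and a change of 2 for 154 of 154 (77% of all 200). These 2 simulations had 7 and 8 false calls. They gave every gene the same spread between libraries and no batch effect, so real genes that vary more may be missed at larger changes. Changes of 1 or less were not reliably detectable even then.

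The genes with the smallest p, none of which passed (edgeR adjusted p = 0.745 for each), included Ssr2, a subunit of the translocon-associated complex of the endoplasmic reticulum. It measured 185, 44.7, 100.5 and 126 CPM in the 4 early libraries by day and 267, 215, 197 and 283 CPM in the 4 late ones. The late libraries were all above the early ones, and the log2 change was 1.02 ± 0.29. Rgs2, a brake on G protein signalling, had 54.4 ± 21.6 CPM early and 114 ± 26.4 CPM late (log2 change 1.29 ± 0.38), also with no overlap. The other leading genes toward late DSS were the glycolytic enzyme Aldoa (0.92), the cyclin Ccnd1 (0.82) and the lectin-like receptor Klrd1 (0.65), whose groups overlapped.

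Toward early DSS the leading gene without overlap was H2-T23, the nonclassical MHC class I molecule Qa-1 that Klrd1-containing receptors recognise. It measured 705, 649, 531 and 514 CPM in the early libraries and 302, 429, 235 and 323 CPM in the late ones, all lower, with a log2 change of -0.78 ± 0.21. Mctp2 did not overlap (log2 change -0.86 ± 0.26), and the actin-binding peptide gene Tmsb4x (-0.48), Stat3 (-0.96) and the hyaluronan receptor Cd44 (-0.65) did. Dntt measured 453, 492, 450 and 561 CPM early and 343, 334, 295 and 404 CPM late, with no overlap (log2 change -0.55 ± 0.19, edgeR unadjusted p = 0.0098, adjusted p = 0.745). Over all genes tested, 19 (1.06%) had every late library above every early one and 43 (2.4%) every late library below.

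MHC class II genes leaned upward in late DSS without passing. Of the 8 tested, 7 had a positive log2 change and none was called, with a median of 0.48. An unadjusted edgeR p under 0.05 was met by 4 of the 8, against 93 of all 1790 genes. Other lists leaned upward too. The chemotactic receptors had 5 of 5 positive with a median of 0.50. The dissociation stress list had 6 of 9 positive with a median of 0.38, and 3 with an unadjusted edgeR p under 0.05. H2-Ab1 measured 596, 1007, 713 and 1675 CPM early and 1310, 1684, 2374 and 1924 CPM late. Day 12 alone of the early libraries reached the late range, and the log2 change was 0.80 ± 0.27 (edgeR unadjusted p = 0.0147, adjusted p = 0.745). H2-Aa (0.64 ± 0.26), H2-Eb1 (0.58 ± 0.20) and the invariant chain Cd74 (0.47 ± 0.16) were close behind, and the protease Ctss was at 0.29. H2-Ab1 passed the test without day 12, at 1.14 (edgeR adjusted p = 0.0329), and with no filter on low counts, at 0.85 (edgeR adjusted p = 0.0199), and over the batch A libraries it was 0.39. In macrophages 6 of the 8 were called higher, against 0.51% of all genes tested there, including H2-Ab1 (0.90, edgeR adjusted p = 0.0145) and Cd74 (0.93, adjusted p = 0.0171). Whether the change differs between the 2 cell types was not tested.

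**Figure D4:**
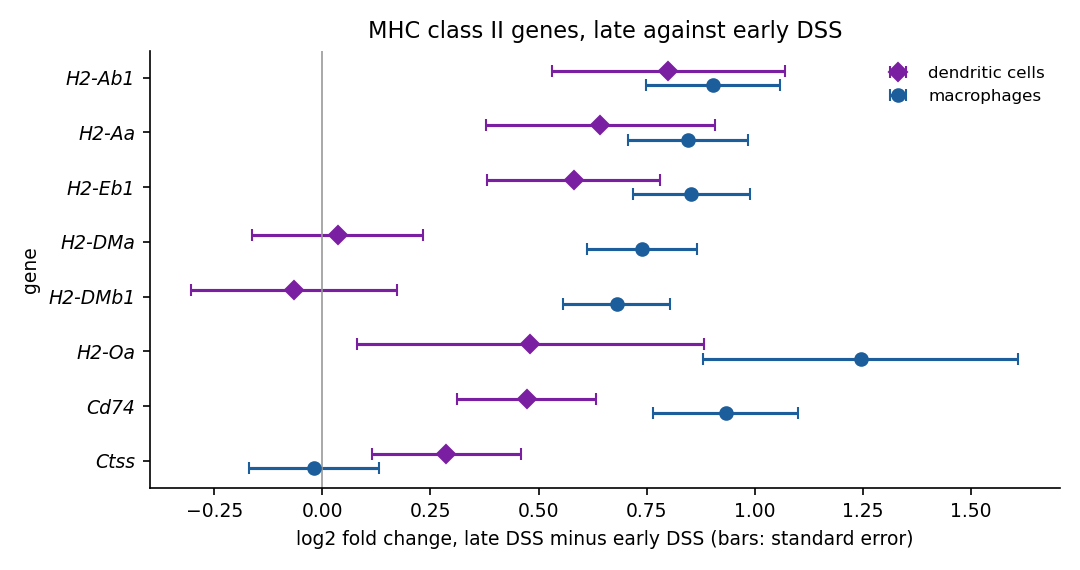
Log2 change from early to late DSS (x axis, bars are standard errors) of the 8 MHC class II genes tested, in dendritic cells (diamonds, none called) and macrophages (circles). H2-Ab1 lies at 0.80 in dendritic cells and 0.90 in macrophages, and H2-DMa and H2-DMb1 lie near 0 in dendritic cells.

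The summed MHC class II level followed the same order, at 8593, 9193, 7828 and 13142 CPM early and 10449, 13436, 17379 and 15891 CPM late, with day 12 above day 16. In the same cells the mean sum was lower in late DSS for the neutrophil list and higher for the plasma cell list. For both lists the early and late libraries overlapped, and no gene was called. The neutrophil list summed to between 327 and 28282 CPM in the early libraries and between 127 and 590 CPM in the late ones. Without the cells above 5% the day 11 value was 1195 CPM, and day 12 fell from 5200 to 2664 CPM. The change of its gene S100a9 did not pass (log2 change -3.90, edgeR adjusted p = 0.914). It did so without day 11 (-2.66, adjusted p = 0.0127) and in the batch A libraries (-2.98, adjusted p = 2.10e-07). Without the 5 cells above 5% no gene was called lower late. The plasma cell list summed to between 196 and 593 CPM early and between 445 and 14488 CPM late, where the day 16 value was 2672 CPM without 1 cell. Igha had a log2 change of 3.82 (edgeR adjusted p = 0.745), and without the 5 cells above 5% Igha (2.51, adjusted p = 3.43e-06) and Igkc (2.15, adjusted p = 1.49e-07) passed as higher late. Over all cells of each library the plasma list ranged from 233 to 8565 CPM in these early libraries and from 13646 to 45516 CPM in the late ones, and the part of free RNA in the dendritic values was not tested.

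**Figure D5:**
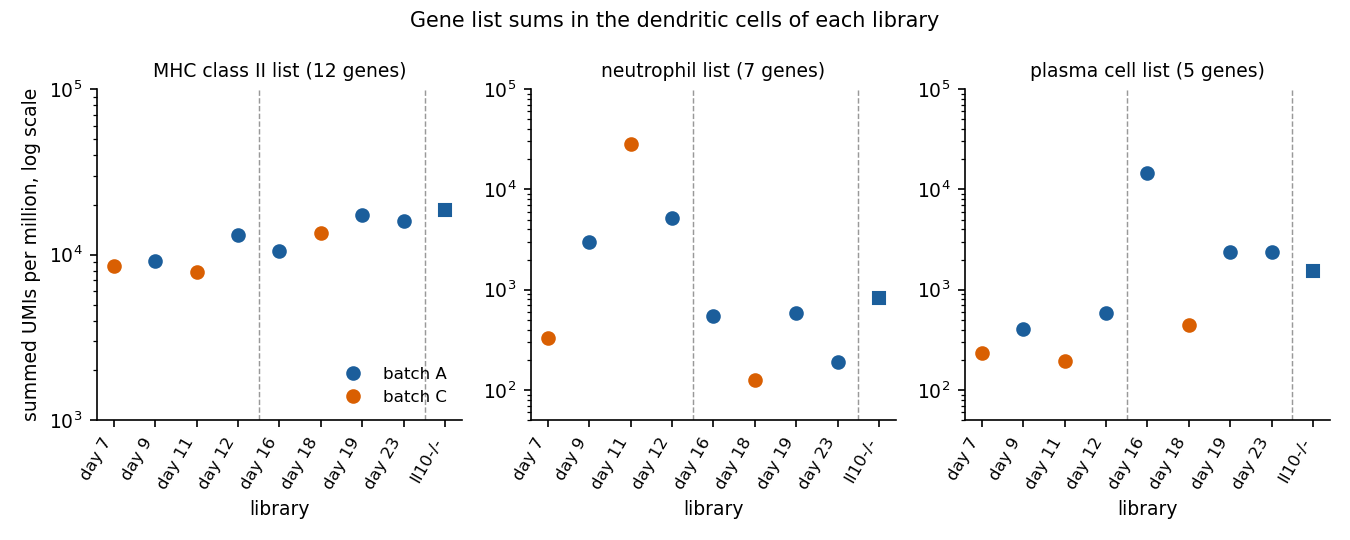
Summed CPM (y axes, log scale) of the MHC class II, neutrophil and plasma cell lists in the dendritic cells of each library (x axes), with dashed lines between early DSS, late DSS and Il10-/-. MHC class II sums run from 7828 to 18518, and the neutrophil sum peaks on day 11 at 28282 and the plasma cell sum on day 16 at 14488.

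No difference in marker list shares between phases passed the test. The share of cells with 3 or more type 1 list genes was 0.835 percentage points higher in late DSS (exact permutation, adjusted p = 0.214), that of the type 2 list 4.87 points higher (exact permutation, adjusted p = 0.214) and that of the mature list 1.09 points lower, a difference of -1.09 (exact permutation, adjusted p = 0.829). With 4 libraries on each side the test has few possible p-values. A single list changing alone could not have reached an adjusted p under 0.05. Within the batch A libraries the differences were 0.786, 7.95 and 1.58 points.

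The Il10-/- dendritic cells (21 cells, 101036 UMIs) were set beside those of the 8 DSS libraries (191 cells, 1028650 UMIs) as a single library, with no test. Of 5324 genes with at least 20 UMIs in one arm, 136 (2.55%) were at least 2-fold higher and above the range of the DSS libraries, and 338 (6.35%) were at most 0.5-fold and below it. Siglech at 1851 CPM lay inside the DSS range. MHC class II genes stood out: 6 of 9 were above the DSS range, against 418 (7.85%) of all genes, with a median ratio of 1.63 against 0.926 for all genes. H2-Ab1 was at 2474 CPM, 1.75-fold the DSS value (95% Poisson interval 1.52 to 2.00), and Cd74 at 9323 CPM, 1.52-fold. The summed MHC class II level was 18518 CPM, above the highest DSS library (17379).

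Genes below the DSS range, which held 609 (11.4%) of all genes, included Flt3 at 0.384-fold (0.139 to 0.855), Tcf4 at 0.723-fold (0.575 to 0.899), the transcription factor Zeb2 at 0.248-fold (0.0989 to 0.518) and Il12a at 0.248-fold. Bst2 (1.25-fold) and Irf8 (1.39-fold) lay above it. The largest ratio belonged to Xist, the RNA that coats the inactive X chromosome of females, with 43 UMIs against none, at least 146-fold higher taking 3 UMIs over the DSS libraries as the limit. Over all cells Xist had 4173 UMIs in Il10-/- and at most 8 in any other library, and the Y-linked genes Ddx3y and Eif2s3y were present in every library, so the sex makeup of the pooled mice moved with this comparison.

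After Xist came Ctse, the endosomal protease cathepsin E, with 32 UMIs against 9 (36.2-fold, 16.9 to 86.2), Oser1 (5.09-fold), the deacetylase Hdac10 (4.07-fold), Rabep1, an effector of early endosomes (4.01-fold), the linker histone Hist1h1c (3.73-fold) and the ubiquitin ligases Dtx3l (3.70-fold) and Rnf114 (3.47-fold). The lowest ratios rested on 1 or 2 UMIs in Il10-/-. Nme2, a nucleoside diphosphate kinase, had 1 UMI against 308 (0.0331-fold, 0.000834 to 0.186), and it was itself uneven in DSS, at 608 to 655 CPM in the batch C libraries and at most 112 CPM in the others. Against the batch A libraries alone it was 0.219-fold. The RNA-binding protein gene Hnrnpa0 (0.0471-fold, 0.00119 to 0.265), Tomm6 of the mitochondrial import complex (0.0717-fold, 0.0018 to 0.406) and the glycolytic enzyme Pgk1 (0.104-fold, 0.0026 to 0.593) followed. Ccpg1, Yipf4, Glcci1 and Syncrip lay between 0.120- and 0.129-fold. Genotype, age, sex makeup and the absence of DSS cannot be told apart here. The DSS values also pool batch A with fresh batch C libraries, while the Il10-/- library is batch A. Against the batch A libraries alone Hnrnpa0 was 0.107-fold, Tomm6 0.142-fold and Oser1 5.88-fold. Il10 transcripts themselves check nothing, since 3' ends may lie outside the changed part of the gene: 1365 UMIs over all Il10-/- cells and none in the Il10-/- dendritic cells.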

How the data were processed

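The authors deposited UMI counts per gene and cell with their cell annotation. Per the submitters' processing notes these came from Cell Ranger 3.0.0 and build mm10. Cells were taken by the annotation, with 3 libraries (12621 cells) that match no label left out. Of 30406 rows, 597 placeholder rows naming no gene (0.477% of dendritic UMIs) were dropped. Dendritic counts were summed per library and tested with edgeR 4.0.16 (quasi-likelihood, robust, TMM, filterByExpr, batch label as a term, Benjamini-Hochberg over all genes); DESeq2 1.42.0 was an alternative. The edgeR step was tested on simulated counts. No doublet caller was run. Marker filters were tried instead. Intervals (95%, exact binomial or Poisson) and limits for a count of 0 (3 counts) cover counting error only.

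Genes named were the 15 largest ratios to the next type, the 5 smallest p in each direction for late against early DSS where none was called, the 8 highest and 8 lowest Il10-/- ratios outside the DSS range, and members of fixed lists. Members and lists were chosen with earlier results of these data known, and the lists for nucleic acid sensing, interferons, plasmacytoid transcription factors, lymphoid progenitors, secretion, homing and inhibitory receptors were added after the cells' markers were seen. Dntt and the neutrophil and plasma cell genes followed across phases were singled out after their values were seen. Some genes these rules select are not reported here. Gene positions are from GENCODE vM21.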

Additional observations from a re-analysis of the deposited data

Results flagged for a closer look

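Within the 5 early DSS libraries the day 12 share of dendritic cells, 0.8043% of captured cells, stood far above the other 4 (0.122 to 0.239%). Among the 4 late libraries, day 16 stood apart from the others with a plasma cell list sum of 14490 CPM (others 445 to 2382 CPM), and with 2672 CPM without the 1 cell that had more than 5% of its UMIs in the plasma cell list. The same library had a secretory pathway list sum of 6096 CPM (others 5300 to 5396 CPM), which was 4841 CPM without that cell and then below the others. Cd209d was at 44.74 CPM on day 9, from 2 UMIs, where the other 3 early libraries had 306 to 336 CPM. Each is a sample far from the others of its group by Dixon's criterion, which chance meets in about 1 of 20 groups. The share, several list sums and many single genes were checked in both phases, so chance alone would give several such cases.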

How the results depend on the processing

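No paired analysis was possible because each group has 1 library and the labels give no replicate numbers. The count of genes called between late and early DSS was 0 in the edgeR fit, 1 with DESeq2, 4 with no filter on low counts (Iglc2, Hdc, Ifitm6 and H2-Ab1), 3 in the batch A libraries, 7 with at least 20 dendritic cells per library, 2 without cells that carry markers of another type and 2 without cells above 5% of UMIs in another type's list. Leaving out 1 library gave 0 to 5: 2 without day 11 (S100a9 and Wfdc17), 5 without day 12 (Iglc2, Tmsb4x, Cd209d, Ccr2 and H2-Ab1) and 2 without day 16 (Igkc and Igha), and 0 without each other library. With at least 20 dendritic cells per library only days 11, 12, 16 and 19 remained. Day 11 was then the only batch C library, so the batch term left day 12 alone for early DSS. In that fit the log2 change of Ccr2 turned to -0.058. A minimum of 5 cells keeps the same libraries as 10. The type 2 list difference turned to -5.32 points without thinning. That of the mature list was 1.58 points in batch A libraries and ran from -1.98 to 0.790 points when 1 library was left out. The Il10-/- count of higher genes, 136 of 5324 tested, was 57 of 3210 against late libraries only, 65 of 3355 against batch A libraries and 57 of 2252 without cells that carry markers of another type, with 348, 292 and 136 lower genes. Under that last filter Hist1h1c was 0.925-fold, Syncrip 1.09-fold, Tomm6 0.960-fold, Glcci1 0.567-fold, Hnrnpa0 0.390-fold, Nme2 0.337-fold, Pgk1 0.333-fold and Oser1 1.75-fold, and Xist was at least 36.1-fold. With counts summed over libraries the ratios to the next type were 12.4 for Havcr1, 6.47 for Tmem229b, 283 for Siglech, 462 for Dntt and 20.4 for Tmem221. The causes were not tested. The marker filter left 90 of 216 cells. The dendritic share against day passed under none of the settings tried after adjustment; without day 18 rho was 0.833 (exact permutation p = 0.0154, adjusted 0.144). Depth limits this comparison: 191 cells in 8 libraries.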

Other observations

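Genes of the secretory pathway were well represented in the dendritic cells: 11 of the 12 genes of the list were detected in at least 50% of cells, and the list summed to 5199 CPM, against 2704 in macrophages, 1661 in B cells and 10515 in plasma cells. MHC class I and antigen-processing genes summed to 9997 CPM, close to the 9669 of macrophages, unlike the class II list. Cell cycle genes summed to 297 CPM, against 372 in macrophages and 7790 in proliferating T cells. The retinoic acid and TGF-beta activation list summed to 25.8 CPM, and Aldh1a2, the retinaldehyde dehydrogenase of some intestinal dendritic cells, had no UMI. These are descriptions of the annotated cells with no test.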
